A study of Mus musculus and Bos taurus with 6 samples.

Results

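Mouse chromosome 19 carried 238 of the 6419 regions bound by SOX9 in the fetal mouse testis, as counted in the authors' list in the form used here. Lines set aside before this work, if any, would change these counts and the densities. The chromosome is described here by all of its peaks, taken as every line of the deposited mouse peak list with that chromosome name, and both species' lists together hold 18407 regions. The chromosome was chosen by its peak density, which was already known to be high, and by the width of its widest peak, the widest of the list. Its density and its widest peak are therefore given as descriptions, without a test. The same holds for every measure that follows from density.

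Chromatin came from whole gonads of Swiss OF1 mice at stage E13.5. Immunoprecipitation with a rabbit antibody against SOX9 gave 2 libraries, and 1 library of input DNA was sequenced without it. No mutation, transgene or drug is named in the labels for any of these 3 libraries, and all of the tissue was fixed with disuccinimidyl glutarate and then formaldehyde. One peak list stands for all 3 libraries. The spread between replicates could not be measured, and the number of reads behind a peak is unknown. The list gives no height, fold enrichment or p-value, so the width of a peak is the only value it has. The gonad holds several cell types, so occupancy in fewer cells and weaker occupancy per cell cannot be told apart. The tissue label could not be checked against marker genes, because no annotation or genome sequence of the list's build (mm9) was used here. For the same reason no sequence is printed and no peak is assigned to a gene.

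SOX9 is a transcription factor with an HMG box, a domain that binds the minor groove of DNA and bends it. In the XY gonad it drives supporting cells to become Sertoli cells, which enclose the germ cells and secrete anti-Müllerian hormone. SOX9 can act from promoters and from enhancers far from their genes. Chromosome 19 is the shortest mouse autosome and is rich in genes. It carries genes with known roles in the gonad. Among them are Dmrt1, a regulator that maintains the Sertoli cell state, and Emx2, which is needed for the early gonad. Another is Cyp17a1, an enzyme of androgen synthesis in Leydig cells. The chromosome also carries Cyp26a1 and Cyp26c1, which encode enzymes that degrade retinoic acid. In the RefSeq table (GRCm38.p6) Dmrt1 lies between Kank1 and Dmrt3, and Dmrt3 is followed by Dmrt2. Whether peaks lie near these genes was not analysed here.

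The 238 peaks ran from chr19:3322168-3324137 to chr19:61301127-61303270, a span of 58.0 Mb. Peaks stood at 4.10 per Mb of this span (95% exact Poisson interval 3.60 to 4.66), against 2.75 per Mb over the other 17 listed autosomes. The ratio of the densities was 1.49 (95% exact interval 1.31 to 1.70). Only chromosome 11, with 4.66 peaks per Mb (4.28 to 5.07), was denser, and the intervals of chromosomes 19 and 11 overlapped. Chromosome 9 came next with 3.32 (3.01 to 3.67), and the other 15 autosomes had lower densities. With 3.72% of autosomal peaks on 2.52% of the summed span, bound regions covered 0.429% of the span of chromosome 19 and 0.280% of that of the others.

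**Figure D1:**
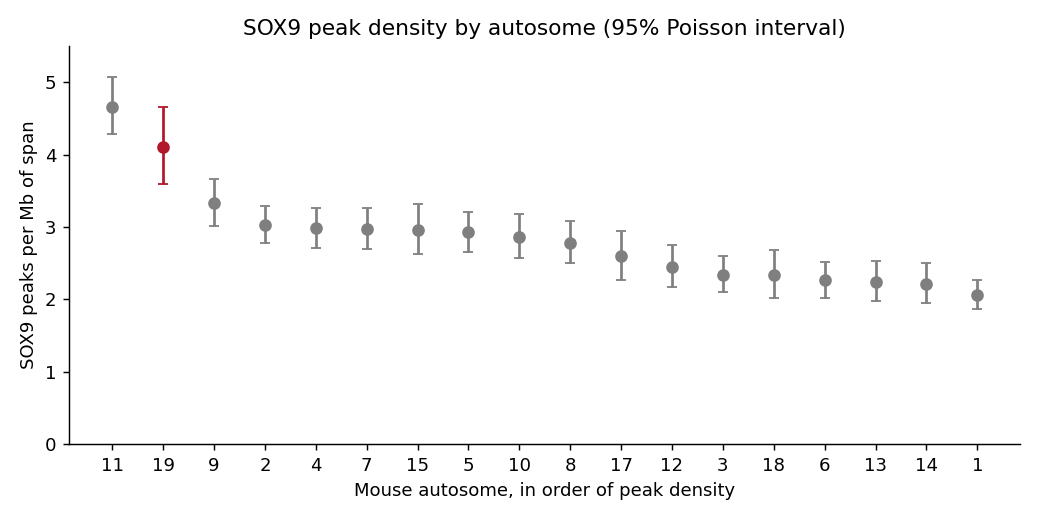
SOX9 peaks per Mb from the first to the last peak of each mouse autosome, in order of density; points are values of the 1 peak list and bars are 95% exact Poisson intervals. Chromosome 19 (red, 4.10 per Mb) is second after chromosome 11 (4.66), with overlapping bars.

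Set against genes, chromosome 19 was ordinary. RefSeq (GRCm38.p6, used for the number of genes only) lists 705 protein-coding genes on it, or 12.2 per Mb of the peak span, a gene density exceeded only by chromosomes 7 and 11. Its 33.8 peaks per 100 protein-coding genes lay in the middle of the autosomes, with 9 chromosomes higher and 8 lower. Over the other 17 the median was 34.1, and the values ran from 21.8 on chromosome 7 to 42.3 on chromosome 12. Chromosome 11 had 34.3 and chromosome 9 had 33.4.

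The peaks were concentrated at the start of the chromosome. Counted in stretches of 10 Mb from the first base, the part before 10 Mb held 66 peaks in 6.68 Mb of span, or 9.88 per Mb (7.64 to 12.6). The 3 stretches from 10 to 40 Mb together held 76 peaks, or 2.53 per Mb (2.00 to 3.17). Between 40 and 50 Mb 59 peaks gave 5.90 per Mb (4.49 to 7.61). Between 50 and 60 Mb 29 peaks gave 2.90 (1.94 to 4.16), and the last 1.30 Mb held 8 peaks. Before 10 Mb the other autosomes had from 1.34 to 4.10 per Mb, with a median of 2.15 and the highest value on chromosome 11. After 10 Mb their median was 2.86, with a range from 2.07 to 4.70. Over their whole spans they had 2.75 per Mb together. The stretches from 10 to 40 Mb were pooled after their counts were seen, and these densities are descriptions.

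No other autosome began as densely. The first 5 Mb after the first peak held 54 peaks on chromosome 19, or 10.8 per Mb, which is 22.7% of its peaks. On the other autosomes the same distance held between 1.2 and 5.0 peaks per Mb, with a median of 2.00 and the highest value on chromosome 11. The last 5 Mb of chromosome 19 held 22 peaks or 4.40 per Mb, equal to the median of the other autosomes, whose highest values were 10.0 on chromosome 15 and 9.80 on chromosome 11. These end stretches were chosen after the counts were seen and carry no test. Mouse chromosomes have their centromere at the start, so the dense stretch lies at the centromeric end of the listed sequence. Without everything before 10 Mb, the density of chromosome 19 was 3.35 per Mb (2.87 to 3.89). Treated in the same way, chromosome 11 had 4.70 and chromosome 9 had 3.43, and the other 15 autosomes had lower densities than chromosome 19.

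**Figure D2:**
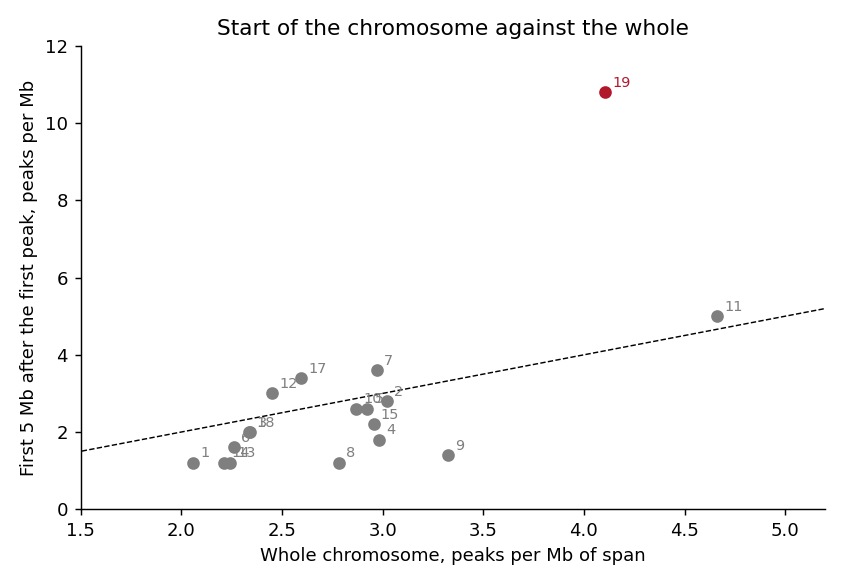
Peaks per Mb in the first 5 Mb after the first peak (vertical axis) against peaks per Mb over the whole span (horizontal axis), 1 point per mouse autosome labelled by its number; the dashed line marks equal values. Chromosome 19 (red) is at 10.8 against 4.10, while the highest of the others in the first 5 Mb, chromosome 11, is at 5.0.

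In windows of 1 Mb, with a peak assigned by its midpoint, the 59 windows of chromosome 19 held from 0 to 14 peaks with a median of 3. Chromosome 11 also had a median of 3, and on the other 16 autosomes it was lower. The fullest windows were chr19:4000001-5000000 and chr19:46000001-47000000 with 14 peaks each. They were followed by chr19:7000001-8000000 with 13, chr19:5000001-6000000 with 12 and chr19:6000001-7000000 with 11. Of these 5 windows, 4 adjoin one another, and the window at 46 Mb stands far from them. The fullest single window of chromosome 19 was not extreme, since 11 of the other autosomes had a fuller one, up to 20 peaks on chromosome 11.

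From the first listed peak onward the windows read as a ridge, a plain and a second ridge. The 7 windows from 3 to 10 Mb held 4, 14, 12, 11, 13, 8 and 4 peaks. From 11 to 40 Mb a single window reached 9 peaks, chr19:29000001-30000000, and the rest held 6 or fewer. The windows from 40 to 48 Mb held 5, 5, 8, 6, 5, 7, 14 and 8 peaks, and that from 48 Mb held 1. After 4 empty windows, the window from 53 Mb held 8 peaks, and those from 54 Mb to the last peak held between 2 and 6. Counts of neighbouring windows were related with a Spearman's rho of 0.39 over the 58 adjoining pairs. This is a description, since windows of 1 chromosome share their surroundings, and 5 of the other autosomes had a higher rho and 12 a lower one (range 0.012 to 0.62).

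Full windows were more frequent on chromosome 19 than on the other autosomes together. By the shares held in its fullest windows, its peaks were less piled into a few of them than on most. Windows of 8 or more peaks made up 16.9% of its windows (10 of 59) and held 44.1% of its peaks. On the other autosomes such windows made up 8.42% (190 of 2256) and held 31.4% of peaks. In contrast, the fullest 10% of windows, which are 6 windows here, held 30.7% of the peaks of chromosome 19, and on 15 of the other autosomes that share was higher, up to 41.7% on chromosome 14. It took 20.3% of its windows to hold 50% of its peaks, a share that chromosome 13 equalled and none of the others exceeded. Chromosome 11, the densest autosome, was close in both measures, with 30.1% and 20.2%. All of these shares follow partly from density and are descriptions. The variance of the counts was 3.32 times their mean, against a median of 3.27 and a range from 1.96 to 4.11 on the other autosomes. By this ratio chromosome 19 lay in the middle, with 7 autosomes higher and 10 lower.

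**Figure D3:**
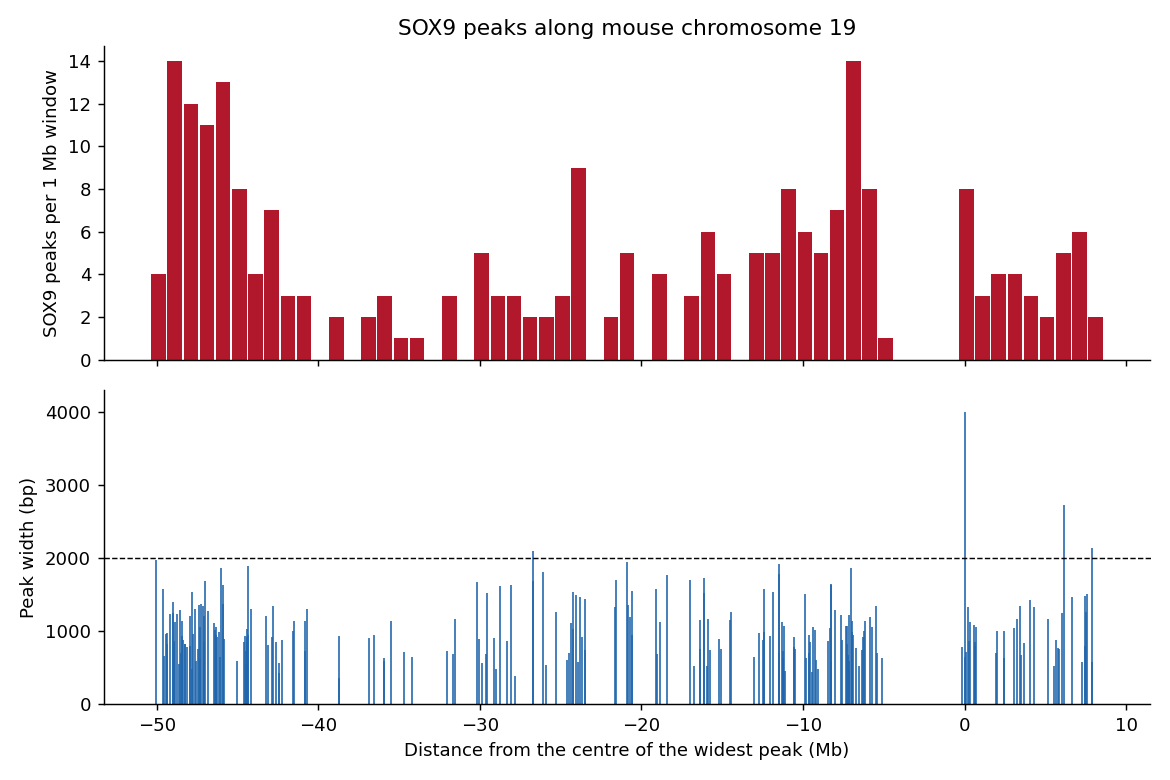
Peaks per 1 Mb window (top) and the width of each of the 238 peaks in bp (bottom) along mouse chromosome 19, both by distance in Mb from the centre of the widest peak; the dashed line marks 2000 bp. The fullest windows, with 14 peaks each, stand in the left ridge and just before the empty stretch of 4.94 Mb, and the widest peak (4004 bp) comes shortly after that stretch.

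Of the 59 windows 12 held no peak, or 20.3% (95% exact binomial interval 10.98 to 32.8%), against 27.1% on the other autosomes (25.3 to 29.0%). The intervals overlapped at these window boundaries, and the share follows from density in any case. With boundaries shifted by 500 kb the difference was larger, 13.6% against 27.6%. On 14 autosomes the share of empty windows was higher than on chromosome 19, and on 3 it was lower. None of the empty windows lay before 10 Mb.

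The longest stretch without a peak was chr19:48280215-53217151, 4.94 Mb long. It was bounded by peaks of 631 bp and 789 bp, both narrower than the chromosome's median of 947.5 bp. In absolute length it was modest, since 15 of the other 17 autosomes had a longer one, up to 12.2 Mb on chromosome 15. As a share of the span, which is the shortest of the 18, it was large: 8.51% of chromosome 19, exceeded only by the 12.3% of chromosome 15. Set against the chromosome's own mean gap it was not extreme. It was 20.3 times that mean, with 5 autosomes higher (up to 36.1) and a median of 17.3 on the others. Outside it the density of chromosome 19 was 4.49 peaks per Mb. It divides the 201 peaks before it from the 37 after it.

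The next 4 stretches were far shorter and all lay between 12 and 32 Mb. They were chr19:19185442-21346727 (2.16 Mb), chr19:12671228-14671249 (2.00 Mb), chr19:29887919-31738205 (1.85 Mb) and chr19:14673342-16510619 (1.84 Mb). The second and the last of these are separated by only 2 peaks, chr19:14671250-14672188 (939 bp) and chr19:14672984-14673341 (358 bp), which lie 795 bp apart. The latter is the narrowest peak of the chromosome, and 13 peaks of the other autosomes were narrower.

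Stretches over 1 Mb numbered 11 on chromosome 19 and took up 35.9% of its span. On the other autosomes they numbered from 22 to 48 and took up 35.4% (chromosome 11) to 60.6% (chromosome 14) of the span. The median gap between neighbouring peaks was 103 kb (quartiles 37.7 and 239 kb), against 130 kb (50.8 and 344 kb) elsewhere. The coefficient of variation of the gaps, which does not scale with density, was 1.90 on chromosome 19, beside a median of 1.89 and a range from 1.47 to 2.60 on the other autosomes.

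Peaks far from any other were rare. Only 1 of the 238 peaks, chr19:28084664-28085923 with a width of 1260 bp, had no other peak within 500 kb, its nearest neighbour lying 580 kb away. That is 0.420% of peaks, the lowest share among the 18 autosomes and below the 1.65% that an even random spread at this density gives by formula. The other autosomes had 5.65% together, and from 2.72% (chromosome 11) to 8.96% (chromosome 3) each. Chromosome 11 is denser than chromosome 19, and its 2.72% stood above the 0.945% of its own formula. The share on chromosome 19 rests on 1 peak, and the distance of 500 kb was chosen after the list had been seen.

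The share of peaks with a close neighbour lay near that of the other autosomes, whose density was lower. On chromosome 19 34 peaks, or 14.3% (95% exact binomial interval 10.1 to 19.4%), had another within 10 kb, edge to edge, against 15.0% (14.1 to 15.9%) on the other autosomes. An even random spread at the density of chromosome 19 gives 7.88%, so the observed share was 1.81 times as high. This ratio was the lowest of the 18 autosomes, the others running from 1.95 on chromosome 15 to 4.09 on chromosome 14, with 2.22 on chromosome 11. The position depends on peaks that almost touch. With peaks less than 500 bp apart merged, 10.3% of regions on chromosome 19 had a neighbour within 10 kb, 1.33 times the formula, and 3 autosomes had a lower ratio. The merged share on the other autosomes was 8.96%. Which side was higher changed with the distance: without merging, the share within 5 kb was 8.40% on chromosome 19 and 10.9% on the others, and within 20 kb it was 25.2% and 21.6%.

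**Figure D4:**
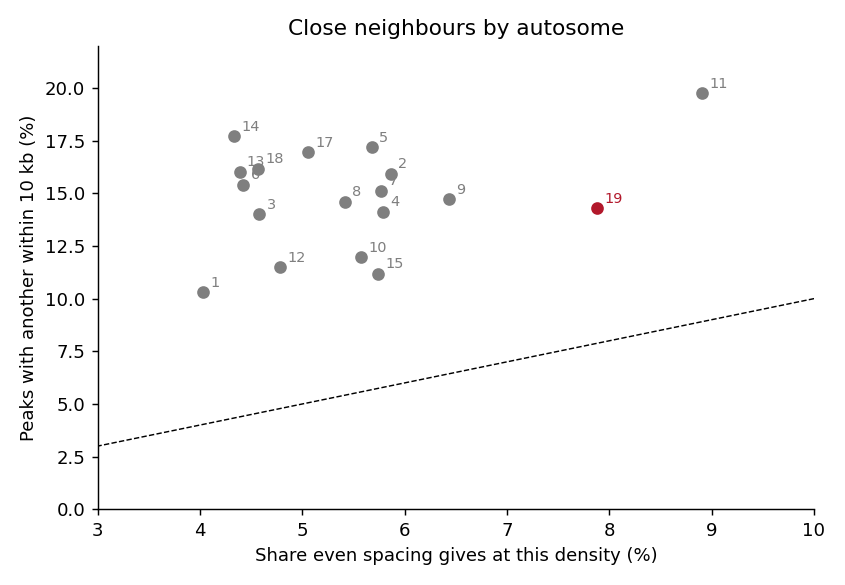
Share of peaks with another within 10 kb (vertical axis, %) against the share that an even random spread at the chromosome's own density gives by formula (horizontal axis, %), 1 point per mouse autosome; the dashed line marks equal values. Chromosome 19 (red) has 14.3% against 7.88%, the smallest ratio of the 18. With peaks less than 500 bp apart merged (not drawn), its ratio was 1.33 and 3 autosomes had a lower one.

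The 34 peaks formed 16 clusters, 14 of 2 peaks and 2 of 3. The first cluster of 3, chr19:7016225-7026800, lies in the fourth of the dense windows at the chromosome's start and holds peaks of 1017, 711 and 651 bp. The gaps between them measure 7641 and 556 bp. The second, chr19:46402725-46424005, lies in the window of 14 peaks at 46 Mb and is the longest cluster of the chromosome at 21.3 kb. Its peaks measure 1146, 557 and 990 bp, with gaps of 8774 and 9814 bp. On the other autosomes the number of clusters of at least 3 ranged from 0 to 5 with a median of 2. The largest cluster held 3 peaks on chromosome 19, and between 2 and 5 elsewhere.

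Gaps under 500 bp, at which 1 bound region may have been listed as 2 peaks, numbered 5 of 237 on chromosome 19, or 2.11% (95% exact binomial interval 0.688 to 4.85%). On the other autosomes they numbered 206 of 6147, or 3.35% (2.92 to 3.83%). The intervals overlapped. Short gaps follow partly from density, so this comparison is a description (odds ratio 0.62, interval 0.20 to 1.496). The shortest gap measured 1 bp, between chr19:10955855-10956279 and the following peak, which are 425 and 565 bp wide and together span 0.991 kb. The widest of these pairs is chr19:26678513-26682568, whose peaks of 1693 and 2100 bp are 263 bp apart. Its second peak is 1 of only 4 on the chromosome wider than 2000 bp.

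Typical widths on chromosome 19 lay close to those of the other autosomes. The median was 947.5 bp (95% order-statistic interval 902 to 1034 bp) against 954 bp (943 to 965 bp). Of the 238 peaks 117, or 49.2% (exact interval 42.6 to 55.7%), were wider than the median of all autosomal peaks, against 3084 of 6164, or 50.03% (48.8 to 51.3%), elsewhere. The odds ratio was 0.97 with an interval from 0.74 to 1.26 (Fisher's exact test, two-sided p = 0.84, adjusted over 3 tests 0.84). The 117 peaks include the widest peak, by which the chromosome was chosen. Without that peak 116 of 237, or 48.9%, were wider than this median. The odds ratio was then 0.96 with an interval from 0.73 to 1.25 (Fisher's exact test, two-sided p = 0.79, not adjusted). The middle of the distribution was slightly broader, with quartiles at 731 and 1260 bp beside 743 and 1209 bp, and only 2 autosomes had a higher upper quartile.

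Peaks over 2000 bp numbered 4, or 1.68% (0.460 to 4.25%), against 138 of 6164 or 2.24% (1.88 to 2.64%). These 4 include the widest peak, by which the chromosome was chosen, so the planned test on them (odds ratio 0.75, interval 0.20 to 1.98; Fisher's exact test, two-sided p = 0.82, adjusted over 3 tests 0.84) is not independent of the choice. Without that peak 3 of 237 remained, or 1.27% (odds ratio 0.56, interval 0.11 to 1.69; Fisher's exact test, two-sided p = 0.49, not adjusted). The direction depends on the width chosen. Over 1500 bp there were 35 peaks on chromosome 19, 14.7%, against 646 or 10.5% elsewhere (odds ratio 1.47, interval 0.99 to 2.14; Fisher's exact test, two-sided p = 0.042, not adjusted). That interval included 1 although the p-value was below the threshold, and the 35 peaks include the widest. Without the widest peak the odds ratio was 1.43 (interval 0.96 to 2.09), and the difference missed the threshold (Fisher's exact test, two-sided p = 0.067, not adjusted). Only chromosomes 3 (15.1%) and 10 (14.8%) had a larger share over 1500 bp. Of the 35 peaks, 31 measured between 1500 and 2000 bp.

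**Figure D5:**
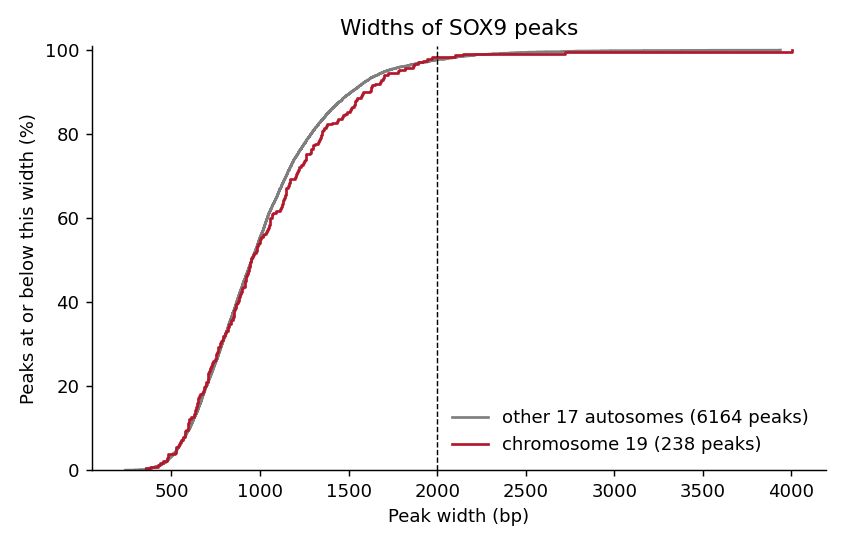
Cumulative share of peaks (%) by width (bp) for chromosome 19 (red, 238 peaks) and the other autosomes (grey, 6164 peaks); the dashed line marks 2000 bp. The curves meet near their medians of 947.5 and 954 bp and again near 2000 bp, and chromosome 19 runs lower between, where it has 14.7% against 10.5% of peaks over 1500 bp.

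The widest SOX9 peak of the mouse list was chr19:53384716-53388719, with 4004 bp. It measured 4.23 times the chromosome's median and 1.47 times its second widest peak. It stands as the second peak after the longest empty stretch. From the last peak before it, chr19:53217152-53217940 (789 bp), it is separated by 167 kb, and from the next, chr19:53403985-53404636 (652 bp), by 15.3 kb. Within 500 kb to either side lay 6 other peaks, all past the end of the empty stretch. Their widths ran from 652 to 1335 bp with a median of 828.5 bp. The widest was chr19:53603030-53604364, and the remaining ones were chr19:53495216-53495934 (719 bp), chr19:53674689-53675556 (868 bp) and chr19:53751168-53752294 (1127 bp). Of these 6 peaks, 4 were narrower than the chromosome's median, and the widest of them lay above its upper quartile.

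The other peaks over 2000 bp were chr19:59531931-59534653 (2723 bp), chr19:61301127-61303270 (2144 bp) and chr19:26680469-26682568 (2100 bp). Among all autosomal peaks they ranked 22nd, 94th and 110th by width. Just below the limit were chr19:3322168-3324137 (1970 bp) and chr19:32462308-32464250 (1943 bp). Of the 4 peaks over 2000 bp, 3 lay among the 37 that follow the longest empty stretch, and none among the 66 before 10 Mb. The first and the last peak of the chromosome ranked 5th and 3rd of its 238 by width. On the other autosomes only the first peak of chromosome 5 was among that chromosome's 5 widest, and no last peak was. These positions were noted after the values were seen and carry no test.

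By rank correlation and by full windows, width and crowding were hardly related on this chromosome. Peaks in windows of 8 or more had a median width of 931 bp (95% interval 851 to 1055 bp, 105 peaks), and the other 133 had 975 bp (894 to 1134 bp), with overlapping intervals. Peaks with a neighbour within 10 kb were narrower, with a median of 848.5 bp against 961.5 bp for the rest. The contrast was much like that on the other autosomes, 851 and 972 bp. Across the 238 peaks, Spearman's rho between width and the distance to the nearest peak was 0.071. The value was positive on all 18 autosomes and lowest here, by a small margin over 0.073 on chromosome 7, with the highest, 0.24, on chromosome 3. These are descriptions across peaks of 1 list, which share their libraries and the unknown calling threshold.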

How the data were processed

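The authors deposited 1 peak list per species as positions and a last column. The last column matched the distance between start and end throughout and is thus the peak width. The build mm9 is named in the submitters' processing notes. Aligner, peak caller, threshold, pooling of libraries and sequencing depth were not given in the sources used here. Chromosome 16 and the Y were not analysed here, and the X (17 peaks) and the cattle list entered no comparison. Positions are printed counted from 1.

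Density was peaks divided by the span from first to last peak. Poisson, binomial and density-ratio intervals (95%) are exact. The Poisson and density-ratio intervals assume that the variance of counts equals their mean. Counts per 1 Mb window varied more, 3.32 times the mean on chromosome 19 and 1.96 to 4.11 times on the others, so these intervals are too narrow. Formula shares assume points spread at random at the chromosome's own density. Shares were compared by Fisher's exact test (scipy 1.17.1) at 0.05, with Benjamini-Hochberg adjustment over 3 planned tests. That of gaps under 500 bp depends on density and is given as a description, though the adjustment still counts it. The width tests were repeated without the widest peak. Peaks of 1 list do not stand for animals, and neighbours depend on each other, so intervals and p-values cover counting error only. The functions were tested on simulated data. Members, comparisons and regions to name were chosen with earlier results of these data known. Named by rule were peaks over 2000 bp and those just under, the 5 fullest windows, the 5 longest empty stretches, clusters of at least 3 peaks, the shortest gap, the narrowest peak and peaks within 500 kb of the widest. Other regions were named after their values were seen. The planned comparisons of gene positions and motifs were not run, since no annotation or sequence of mm9 was used here.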

Additional observations from a re-analysis of the deposited data

How the results depend on the processing

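Of 28 alternative values, 20 kept the direction and side of the test's threshold or, without a test, stayed within the value's 95% interval. Another 5 moved and 3 turned direction. The longest empty stretch has no interval, so any change in its length counted as moved. Keeping the widest 50% of mouse peaks lowered the density of chromosome 19 to 2.04 peaks per Mb (1.38 on the other autosomes), lengthened its longest empty stretch to 5.45 Mb and lowered the share of peaks with a neighbour within 10 kb to 3.39%, with fewer peaks by construction. The neighbour share was 8.40% within 5 kb (10.9% elsewhere) and 25.2% within 20 kb (21.6%). The odds ratio for wide peaks was 1.47 at 1500 bp and 1.57 at 2500 bp (2 peaks on chromosome 19) against 0.75 at 2000 bp. Without the widest peak, by which the chromosome was chosen, it was 1.43 at 1500 bp, 0.79 at 2500 bp (1 peak) and 0.56 at 2000 bp, so the turn at 2500 bp rests on that peak. The cause of the turn at 1500 bp was not tested. Shifting window boundaries by 500 kb gave 13.6% empty windows against 27.6% elsewhere. Leaving out the widest peak, and leaving chromosome 11 out for peaks over 2000 bp and gaps under 500 bp, were chosen after seeing the data. No paired analysis was possible because 1 list stands for all mouse libraries, and leaving out replicates was not possible for the same reason. Alternatives for genes and motifs were not run. Depth is unknown, so regions too shallow to be called cannot be seen.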
